A study of Mus musculus with 6 samples.

Results

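The fibroblast growth factor (FGF) genes described here are 10 genes of the expression table chosen by symbol, out of 36845 distinct symbols: the ligands Fgf1, Fgf2, Fgf7, Fgf10 and Fgf18, and the receptors Fgfr1, Fgfr2, Fgfr3, Fgfr4 and Fgfrl1. They were measured by RNA sequencing in bone marrow mesenchymal stem cells (BMMSCs) of C57BL/6 mice, the plastic-adherent cells of flushed marrow. The 3 control libraries came from cells given non-targeting siRNA, and the 3 siTet1/Tet2 libraries from cells given siRNAs against both Tet1 and Tet2, which encode dioxygenases that oxidise 5-methylcytosine. The labels place every culture at passage 2, whereas the methods give an earlier passage and call the sequenced controls vehicle-treated. Both groups thus share strain, marrow origin and culture, and no group received an siRNA against only 1 of the Tet genes. Nothing in the labels says whether libraries of a group came from separate mice or cultures, so p-values measure the spread among these 6 libraries, which may be technical.

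FGF ligands bind receptor tyrosine kinases together with heparan sulfate, and the active receptors signal through the MAP kinase and PI3 kinase routes. The feedback inhibitors Spry and Dusp and the Etv transcription factors are well known targets of this signal. In bone marrow and skeletal tissue the pathway is known for its part in the growth of stromal progenitors and in bone formation, and in many organs Fgf7 and Fgf10 are mesenchymal ligands that act on neighbouring epithelia.

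Values are RPKM as deposited, a unit for read counts scaled by transcript length and library size. The counts themselves were not part of the data used. Differences were tested with limma on log2(RPKM + 1), a scale that understates the change of genes near or below 1 RPKM, with Benjamini-Hochberg adjustment over the 13249 genes that averaged 0.1 RPKM or more. By that filter 7 FGF genes were tested and Fgf18, Fgfr3 and Fgfr4 were not. Fgf10 passed it through its control values.

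The targeted gene Tet2 was read at 2.57, 4.08 and 3.71 RPKM in the controls and at 0.358, 0.238 and 0.202 RPKM in the siTet1/Tet2 libraries, while Tet1 lay at or under 0.1 RPKM in every library and was not tested. Libraries correlated at 0.992 to 0.997 within groups and at 0.949 to 0.969 between them, and their depth, estimated from the steps of low values, was about 32400000 to 38600000 reads. The cell type label held in part. Of 15 stromal markers, Thy1, Lepr and Lum were at or under 0.1 RPKM, and the summed stromal level was 1502 to 2074 RPKM in controls and 207 to 429 RPKM after siRNA, with 9 of 12 tested markers lower and 0 higher by limma. The 14 macrophage markers, all expressed in both groups, summed to 8090 to 10708 RPKM in controls and 15746 to 18591 RPKM after siRNA, with 7 higher and 2 lower. Most of that rise came from Lyz2, whose mean went from 4439 to 11321 RPKM. The median log2 ratio of the macrophage list was only 0.20. The adipocyte list summed to 246 to 303 RPKM against 548 to 704 RPKM, of which Fabp4 made up most, and its 5 tested genes included 4 that were higher. Neutrophil, lymphoid and endothelial lists reached at most 16.2 RPKM in any library and the erythroid list at most 0.18 RPKM. In such bulk samples, fewer cells of a type and less RNA per cell cannot be told apart.

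Most FGF genes that could be tested were lower after the knockdown. Fgf7, Fgf10, Fgfr1, Fgfr2 and Fgfrl1 fell, Fgf1 rose, and Fgf2 did not pass the test. By adjusted p, 5 of the 7 tested genes were lower, against 29.8% of all genes tested, and 1 was higher, against 14.7% (44.5% in either direction). Fgf10 counts among the 7 and the 5 only through its control values, since its siRNA values lay under the filter. The same 5 and 1 had groups that did not overlap, as did 35.9% of all genes downwards and 19.8% upwards. With the study's thresholds, an unadjusted p under 0.05 and a fold over 2, the fold being taken here on log2(RPKM + 1), 3 were lower (Fgf7, Fgfr1 and Fgfr2), against 5.62% of all genes, and 0 were higher, against 0.951% (6.57% in either direction). With the ratio of group means as the fold, or with 0.1 or 0.01 RPKM added, 5 were lower and 1 was higher, since Fgf10, Fgfrl1 and Fgf1 then passed too. The shares of 5.62% and 0.951% belong to the log2(RPKM + 1) fold, and those for the other folds are not given here. The median log2 difference was -0.95 over the 7 genes and -0.09 over all genes tested. Rescaling the libraries by the median ratio moved the median of all genes to 0.00, and quantile normalization moved it to 0.06. The same 6 calls held under both.

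**Figure D1:**
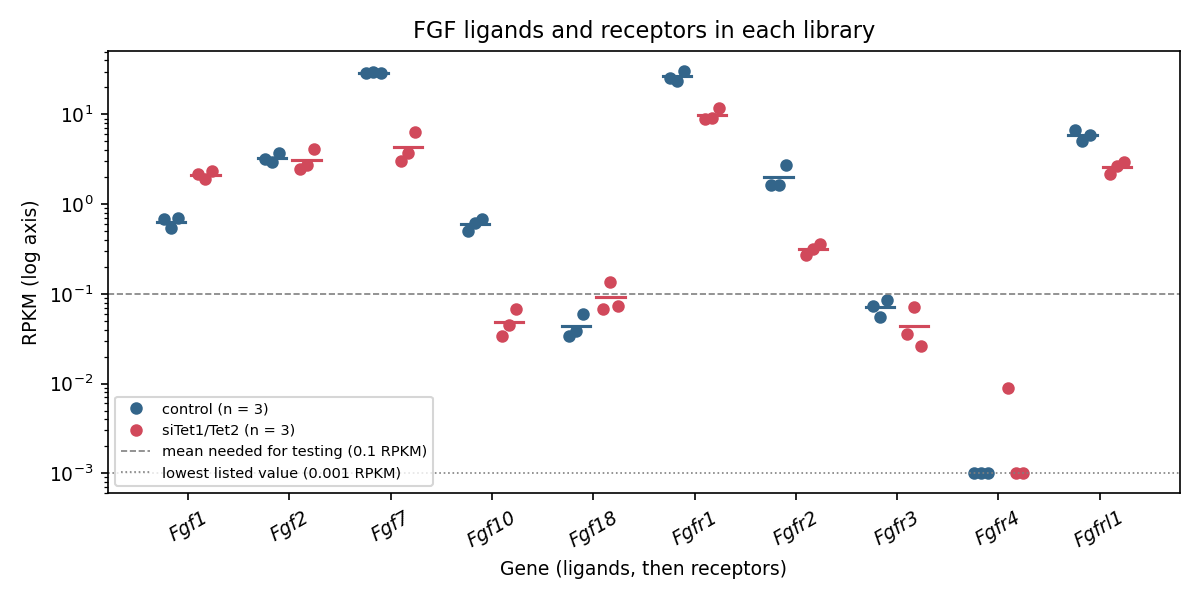
RPKM on a log axis of each FGF gene in every library, with points for the 3 control and the 3 siTet1/Tet2 libraries and a short bar for each group's mean, drawn for every gene except Fgfr4. Fgf7, Fgf10, Fgfr1, Fgfr2 and Fgfrl1 separate downwards and Fgf1 upwards, while the points of Fgf2 and Fgfr3 overlap between groups.

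Fgf7, which encodes keratinocyte growth factor, had the highest control mean of the FGF genes, although Fgfr1 exceeded it in the third control. It lies on chromosome 2 from 126034658 to 126091185 (GRCm38). Control libraries gave 29.2, 29.4 and 28.9 RPKM, and siTet1/Tet2 libraries 2.99, 3.73 and 6.39 RPKM. The controls were nearly alike, the groups did not overlap, and the third siRNA library was the highest of its group. The group means were 29.2 ± 0.225 and 4.37 ± 1.79 RPKM (SD, n = 3 each), a 6.67-fold lower level, and the log2 difference was -2.54 (SE 0.20; limma adjusted p = 3.54e-05).

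Fgf10, the close relative of Fgf7 that drives epithelial budding in lung and limb, lies on chromosome 13 from 118669791 to 118792115. It was read at 0.507, 0.611 and 0.680 RPKM in controls, and at 0.034, 0.045 and 0.068 RPKM after siRNA. All 3 siRNA values were far below the controls, although each rested on only about 5 to 10 estimated reads, against 78 to 91 in the controls. Mean RPKM was 12.2-fold lower, from 0.599 ± 0.0871 to 0.0490 ± 0.0173 (SD, n = 3 each). The log2 difference was -0.61 (SE 0.07; limma adjusted p = 0.000174), small because of the added 1 RPKM, and -3.40 with 0.01 RPKM added instead.

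Fgf1, acidic FGF, which can bind every FGF receptor, went the other way. Its gene is on chromosome 18 from 38838673 to 38929472. Controls held 0.679, 0.542 and 0.693 RPKM and siTet1/Tet2 libraries 2.16, 1.89 and 2.31 RPKM. Every siRNA value lay above every control value. The mean rose 3.32-fold, from 0.638 ± 0.0834 to 2.12 ± 0.212 RPKM (SD, n = 3 each), with a log2 difference of 0.93 (SE 0.08; limma adjusted p = 7.53e-05), or 1.72 with 0.01 RPKM added. The macrophage and adipocyte marker sums given above were also higher in those libraries, and their part in the Fgf1 difference was not tested.

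Fgf2, basic FGF, a mitogen widely used to expand stromal cultures, lies on chromosome 3 from 37348346 to 37410108. It gave 3.22, 2.94 and 3.67 RPKM in controls and 2.45, 2.73 and 4.15 RPKM after siRNA. The siRNA libraries held both the lowest values and the highest. The log2 difference was -0.08, with a 95% interval from -0.43 to 0.28 (limma adjusted p = 0.713), an interval that holds decreases as well as increases. The sign turned under median ratio scaling, to 0.01, and under quantile normalization, to 0.13.

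Fgf18, a ligand with roles in cartilage and bone, was close to the limit of detection. Its values of 0.034, 0.039 and 0.060 RPKM in controls and 0.067, 0.134 and 0.073 RPKM after siRNA did not overlap, but stood on about 1 to 2 and 3 to 6 estimated reads. Without the filter its log2 difference was 0.06 (limma adjusted p = 0.385).

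The make-up of the ligand transcripts shifted accordingly. The 5 ligands summed to 33.6, 33.5 and 34.0 RPKM in the controls and to 7.70, 8.54 and 12.995 RPKM after siRNA. Fgf7 made up 86.8, 87.7 and 85.0% of that sum in controls and 38.8, 43.7 and 49.2% after siRNA. Fgf2 contributed 8.78 to 10.8% in controls and 31.8 to 32.0% after siRNA. Fgf1 contributed 1.62 to 2.04% and 17.8 to 28.0%. RPKM is scaled by transcript length, which makes these shares comparable between genes. The Fgf7 to Fgf10 ratio rose from between 42.6 and 57.6 in controls to between 83.0 and 94.0 after siRNA, where Fgf10 rests on few reads.

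**Figure D2:**
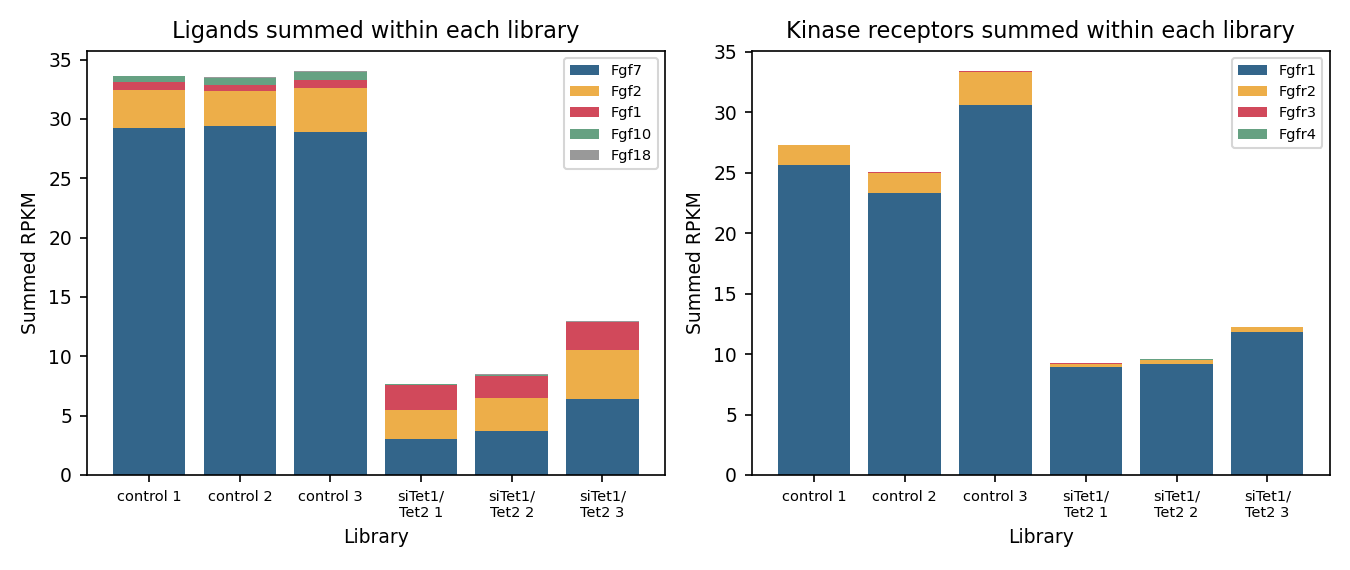
Summed RPKM of the ligands and of the kinase receptors in each of the 6 libraries, stacked by gene on linear axes that start at 0. Fgf7 fills most of the control ligand bars of 33.5 to 34.0 RPKM, and Fgfr1 most of the receptor bars in every library.

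Among the receptors, Fgfr1, the main FGF receptor kinase of mesenchymal cells, was the most abundant. It is on chromosome 8 from 25513654 to 25575718. Controls gave 25.6, 23.4 and 30.6 RPKM and siTet1/Tet2 libraries 8.92, 9.16 and 11.8 RPKM. The groups did not overlap, and the third library was the highest in both. The mean was 2.66-fold lower, 26.5 ± 3.70 against 9.97 ± 1.63 RPKM (SD, n = 3 each), with a log2 difference of -1.33 (SE 0.13; limma adjusted p = 9.83e-05).

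Fgfr2, whose splice forms include the epithelial receptor of Fgf7 and Fgf10, lies on chromosome 7 from 130162451 to 133123350. It was read at 1.62, 1.63 and 2.76 RPKM in controls and at 0.270, 0.319 and 0.360 RPKM after siRNA. The third control stood above its fellows, and every siRNA value was far below the controls. The mean was 6.33-fold lower, 2.00 ± 0.653 against 0.316 ± 0.0451 RPKM (SD, n = 3 each), with a log2 difference of -1.17 (SE 0.14; limma adjusted p = 0.000278), or -2.59 with 0.01 RPKM added. Without the third control it was -0.996 on the log2(RPKM + 1) scale, just short there of a fold of 2. The table gives 1 value per gene, so splice forms were not told apart.

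Fgfrl1 encodes a receptor that lacks the tyrosine kinase domain, and lies on chromosome 5 from 108692382 to 108706924. Its control values were 6.76, 5.10 and 5.86 RPKM and its siRNA values 2.18, 2.64 and 2.92 RPKM, again with no overlap. The mean was 2.29-fold lower, 5.91 ± 0.829 against 2.58 ± 0.374 RPKM (SD, n = 3 each), and the log2 difference was -0.95 (SE 0.12; limma adjusted p = 0.000413). With 0.01 RPKM added it was -1.19.

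Fgfr3, known for restraining growth plate chondrocytes, gave 0.073, 0.055 and 0.085 RPKM in controls and 0.036, 0.071 and 0.026 RPKM after siRNA. These overlapped and came from about 4 to 12 estimated reads, and without the filter the log2 difference was -0.04 (limma adjusted p = 0.575). Fgfr4, which pairs with Klb in liver, was listed at the lowest value of 0.001 RPKM in 5 libraries and at 0.009 RPKM, about 1 read, in the first siRNA library. No difference in either was detectable at this depth.

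The kinase receptors Fgfr1 to Fgfr4 summed to 27.3, 25.04 and 33.4 RPKM in controls and to 9.23, 9.55 and 12.2 RPKM after siRNA. Fgfr1 made up 91.5 to 93.8% of the sum in controls and 95.9 to 96.8% after siRNA. The share of Fgfr2 was 5.91, 6.52 and 8.24% in controls and 2.93, 3.34 and 2.94% after siRNA. The Fgfrl1 to Fgfr1 ratio was 0.263, 0.218 and 0.192 in controls and 0.244, 0.288 and 0.246 after siRNA, and these overlapped.

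Ordered by control level, Fgf7 and Fgfr1 came first and overlapped, followed by Fgfrl1, Fgf2 and Fgfr2, each separate from the next. Fgf1 and Fgf10 came next and overlapped, and Fgfr3, Fgf18 and Fgfr4 were last. After siRNA the leading gene was Fgfr1, separate from the rest. Fgf7, Fgf2, Fgfrl1 and Fgf1 followed, each overlapping its neighbour. Fgfr2 came next, then Fgf18, Fgf10 and Fgfr3, which overlapped, and last Fgfr4.

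**Figure D3:**
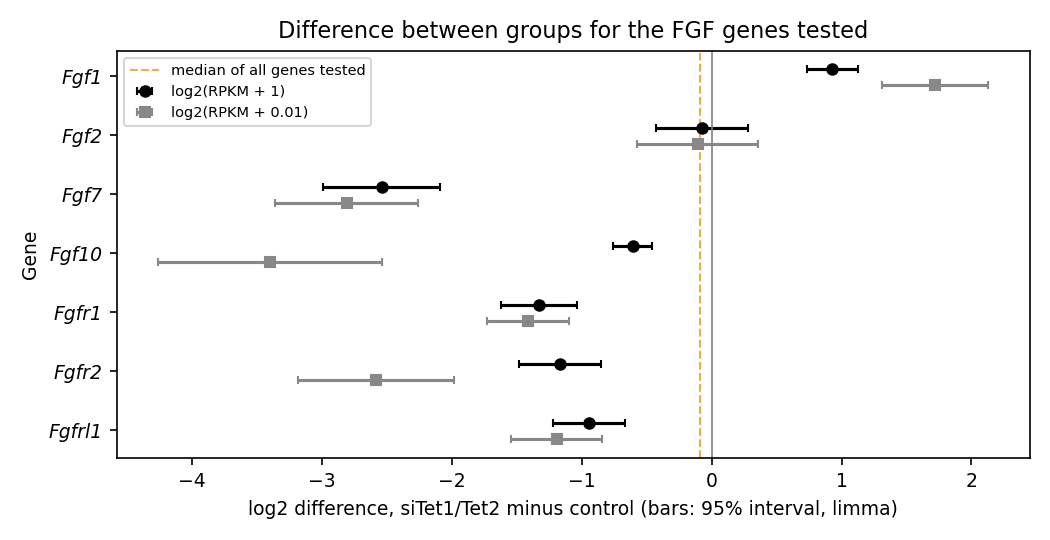
Difference between groups (siTet1/Tet2 minus control, log2) of the FGF genes, with 95% intervals from limma, on the scale used for the tests and with a smaller added value. Intervals of Fgf7, Fgf10, Fgfr1, Fgfr2 and Fgfrl1 lie below 0, that of Fgf1 above it, and that of Fgf2, -0.43 to 0.28, spans it.

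The promoters of genes that fell and of one that did not are set side by side, since the silenced enzymes act on methylated CG dinucleotides. No methylation was measured in these libraries. RefSeq windows on GRCm38.p6 were matched for 8 of the 10 genes, with Fgf1 and Fgfr1 named only. Each sequence is the 250 bases before a listed start, 5′ to 3′, with every CG in capitals. By the gene spans given above, only the Fgf7 window lies before its gene. The windows of Fgf10, Fgfr2, Fgfrl1 and Fgf2 lie inside the spans of their genes. Their listed starts therefore differ from the outer ends of those spans, and other starts of these genes were not compared.
Fgf7 promoter, chr2:126034408-126034657, plus strand: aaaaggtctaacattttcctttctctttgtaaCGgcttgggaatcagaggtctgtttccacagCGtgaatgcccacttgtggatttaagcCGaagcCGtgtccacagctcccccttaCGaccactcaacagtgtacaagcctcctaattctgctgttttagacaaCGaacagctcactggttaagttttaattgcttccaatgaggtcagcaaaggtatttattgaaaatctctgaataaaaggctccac
Fgf10 promoter, chr13:118714449-118714698, plus strand: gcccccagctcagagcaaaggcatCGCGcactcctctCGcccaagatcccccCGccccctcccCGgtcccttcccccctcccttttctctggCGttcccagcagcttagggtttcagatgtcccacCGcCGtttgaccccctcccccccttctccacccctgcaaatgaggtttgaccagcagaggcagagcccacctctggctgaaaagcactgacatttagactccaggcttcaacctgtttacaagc
Fgfr2 promoter, chr7:130266809-130267058, minus strand: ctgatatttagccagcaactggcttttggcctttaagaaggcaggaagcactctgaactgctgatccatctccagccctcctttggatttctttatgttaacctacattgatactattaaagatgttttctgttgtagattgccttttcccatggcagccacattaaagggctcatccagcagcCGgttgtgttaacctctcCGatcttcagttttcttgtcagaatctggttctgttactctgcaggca
Fgfrl1 promoter, chr5:108693979-108694228, plus strand: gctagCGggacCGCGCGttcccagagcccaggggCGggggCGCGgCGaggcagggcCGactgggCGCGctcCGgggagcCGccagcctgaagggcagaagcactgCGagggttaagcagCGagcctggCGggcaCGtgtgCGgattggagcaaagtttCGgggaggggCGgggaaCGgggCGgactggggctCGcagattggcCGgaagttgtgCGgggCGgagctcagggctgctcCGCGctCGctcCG
Fgf2 promoter, chr3:37348403-37348652, plus strand: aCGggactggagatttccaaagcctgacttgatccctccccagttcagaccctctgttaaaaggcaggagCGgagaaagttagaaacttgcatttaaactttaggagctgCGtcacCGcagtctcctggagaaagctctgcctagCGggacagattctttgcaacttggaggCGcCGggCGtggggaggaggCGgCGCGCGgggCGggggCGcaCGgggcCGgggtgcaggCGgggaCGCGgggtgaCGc

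The Fgf7 window held 6 CG dinucleotides, the median over 32851 mouse promoters of this length outside chromosome 18, Fgf10 held 8 and Fgfr2 held 2. By contrast Fgfrl1, which also fell, held 30, more than or as many as 94.8% of promoters, and Fgf2 held 20. The GC box GGGCGG, searched on both strands and present in 32.7% of promoters, occurred 4 times in the Fgfrl1 window, 1 time each in Fgf10 and Fgf2, and not in Fgf7 or Fgfr2. The Runx core TGTGGT, in 14.0% of promoters, and the TATA box TATAAA, in 12.4%, were searched likewise and matched none of these 5 windows. Genes that fell thus included CG-poor and CG-rich windows, and these matches only describe the letters.

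The FGF genes were then set beside the stromal markers, because those fell in the same libraries. On the plain log2 ratio of mean RPKM, without added value, Fgf7 stood at -2.74 and Fgfr2 at -2.66, and for each 5 of the 12 tested stromal markers fell further and 7 fell less. Fgf10, at -3.61, was below all 12. Fgfr1, at -1.41, and Fgfrl1, at -1.20, were exceeded by 9 markers, the remaining 3 being Nt5e, Mcam and Fap. The median of the stromal list was -2.53.

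Dividing each library by its median ratio to the stromal markers, a scaling chosen after the data were seen, ended every call of a lower level among the FGF genes. It left log2 differences of -0.26 for Fgf7 (limma adjusted p = 0.474), -0.17 for Fgf10 (0.135) and -0.04 for Fgfr2 (0.815). With 0.01 RPKM added, Fgf10 stood at -1.07 (limma adjusted p = 0.0626). It turned Fgfr1 to 1.05 (limma adjusted p = 0.00425) and Fgfrl1 to 1.05 (0.000485), and put Fgf2 at 1.81 and Fgf1 at 2.27. Dividing by the median level of the stromal markers instead made 6 of the 7 genes higher, Fgf7 at 0.42 (limma adjusted p = 0.0359) and Fgfr2 at 0.28 (0.0252) among them, and left Fgf10 at -0.06 (0.597). That level was taken over all 15 markers, and it raised the siRNA libraries over the controls by more than the ratio did. Fgfr1, Fgfrl1, Fgf2 and Fgf1 were higher after siRNA under both scalings. Both raise all values of the siRNA libraries over those of the controls. A gene that fell less than this shift, or did not fall, thus comes out higher by construction. Tet3, which was not targeted, had a log2 difference of 0.12 in the main fit (limma adjusted p = 0.508). It stood at 2.32 by the median ratio and 2.93 by the median level. The share of all genes called under either scaling is not given here. The part of the stromal and macrophage shifts in the FGF differences was not tested.

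**Figure D4:**
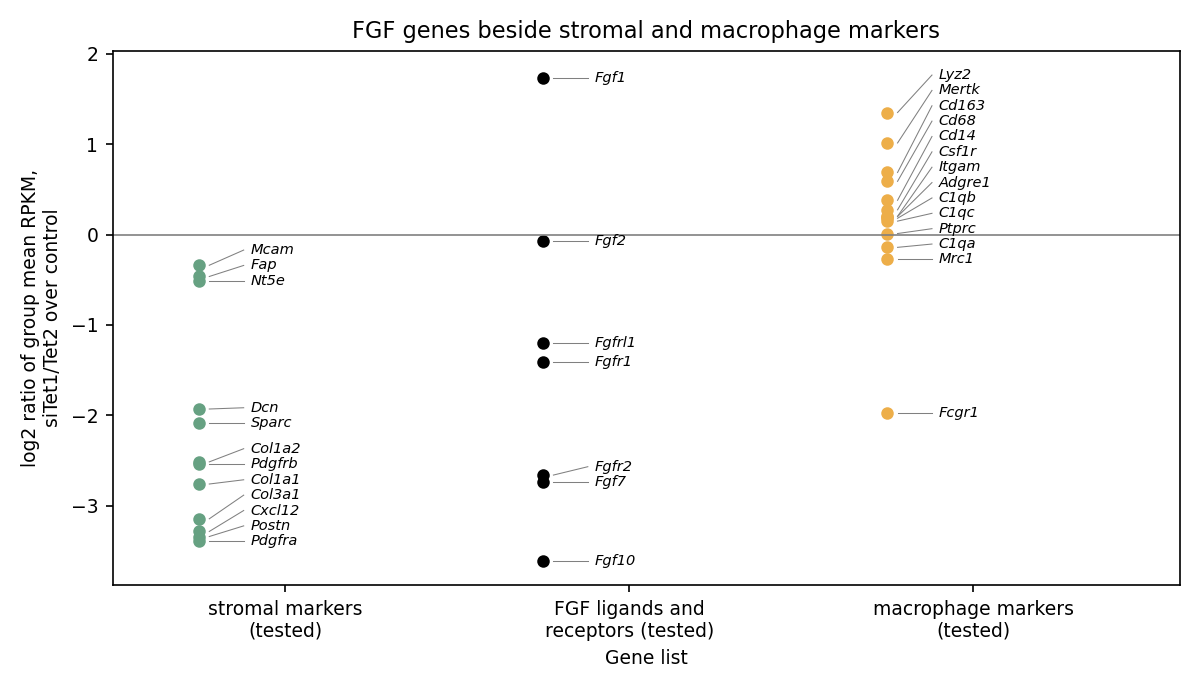
Log2 ratio of mean RPKM (siTet1/Tet2 over control) of the FGF genes beside those of the tested stromal and macrophage markers, 1 point per gene. Fgf7, Fgf10 and Fgfr2 sit among or below the stromal markers, whose median is -2.53, Fgfr1 and Fgfrl1 sit above most of them, and Fgf2 and Fgf1 sit above all of them.

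The rest of the pathway was counted from 5 lists with 92 genes, of which 67 were tested, 35 were lower and 8 higher by limma adjusted p, with a median log2 difference of -0.30. Of all genes tested, 29.8% were lower and 14.7% higher, with a median of -0.09. Scaled to the stromal markers, as for the FGF genes above, 0 of the 67 were lower and 64 higher by their median level, and 3 were lower (Hs3st1, Hs6st2 and Spry1) and 58 higher by the median ratio. The directions given for the lists therefore hold for the RPKM as deposited. Both scalings raise all values of the siRNA libraries over those of the controls. The share of all genes called under either is not given here. Counts after scaling, here and below, thus have no share of all genes to stand beside. The 29.8% and 14.7% belong to the unscaled values. The other FGF ligands were low. Of 17, only Fgf11 and Fgf13, intracellular FGF-related proteins, were tested and neither passed, with control means of 0.608 and 0.371 RPKM and siRNA means of 0.695 and 0.3003 RPKM.

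Co-receptors and carriers, the proteoglycans and membrane proteins that hold FGFs at the cell surface, were mostly lower. Of 16 listed genes 11 were tested, 10 were lower and 0 higher, with a median of -0.95, beside 29.8% and 14.7% of all genes. By the median ratio to the stromal markers, 0 were lower and 7 higher. The syndecan Sdc2 went from 37.7 ± 2.16 to 6.30 ± 2.13 RPKM, a log2 difference of -2.45. The basement membrane proteoglycan Hspg2 went from 30.3 ± 9.50 to 6.42 ± 2.42 RPKM (-2.08), and the glypican Gpc4 from 13.03 ± 1.47 to 3.40 ± 0.972 RPKM (-1.69). Gpc6 (-1.18), Sdc1 (-1.08) and the most abundant of the list, Sdc3 (-0.86), fell too. Nrp1, named after its values were seen, was the gene that did not pass, at 156 ± 16.1 and 144 ± 5.66 RPKM.

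Among 13 tested genes of heparan sulfate synthesis and editing, 6 were lower and 1 higher, with a median of -0.21, beside 29.8% and 14.7% of all genes. By the median ratio to the stromal markers, 2 were lower and 10 higher. Hs3st1, lower in both counts, passed the filter only through its control values, with means of 0.957 RPKM in controls and 0.0413 RPKM after siRNA. The 6-O-sulfotransferase Hs6st2 went from 4.65 ± 1.02 to 0.516 ± 0.248 RPKM (-1.89) and the chain polymerase subunit Ext1 from 29.5 ± 0.613 to 12.5 ± 1.72 RPKM (-1.18), while its partner Ext2 fell by less (-0.55). The endosulfatases differed in direction. Sulf1 fell from 6.60 ± 1.07 to 1.85 ± 0.849 RPKM (-1.44), and Sulf2, named after its values were seen, rose from 20.9 ± 1.03 to 29.2 ± 2.09 RPKM (0.46).

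The 22 signal transducers were tested in full, and 4 were lower, 6 higher and 12 did not pass, with a median of -0.01, beside 29.8% lower and 14.7% higher of all genes. By the median ratio to the stromal markers, 22 were higher. None met the fold threshold. The kinase Map2k1 went from 62.9 ± 2.02 to 46.4 ± 1.88 RPKM (-0.43) and the kinase Akt1 from 130 ± 5.52 to 170 ± 2.26 RPKM (0.38).

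Of 19 feedback inhibitors and targets, 15 were lower, 1 was higher and 3 did not pass, with a median of -0.61, beside 29.8% lower and 14.7% higher of all genes. By the median ratio to the stromal markers, 1 (Spry1) was lower and 17 were higher. The inhibitor Spry1 gave 10.5, 8.49 and 13.3 RPKM in controls and 0.516, 0.851 and 1.29 RPKM after siRNA, with no overlap. Its log2 difference was -2.64 (SE 0.19). Ccnd1, cyclin D1, went from 297 ± 5.76 to 104 ± 19.1 RPKM (-1.52). Dusp6, an ERK phosphatase, and the transcription factor Etv5, both named after their values were seen, went from 51.2 ± 1.73 to 25.8 ± 1.68 RPKM (-0.97) and from 29.0 ± 2.36 to 16.2 ± 2.41 RPKM (-0.81). Fos, named likewise, was the 1 gene that rose, by 0.27. These genes also respond to other growth factors.

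**Figure D5:**
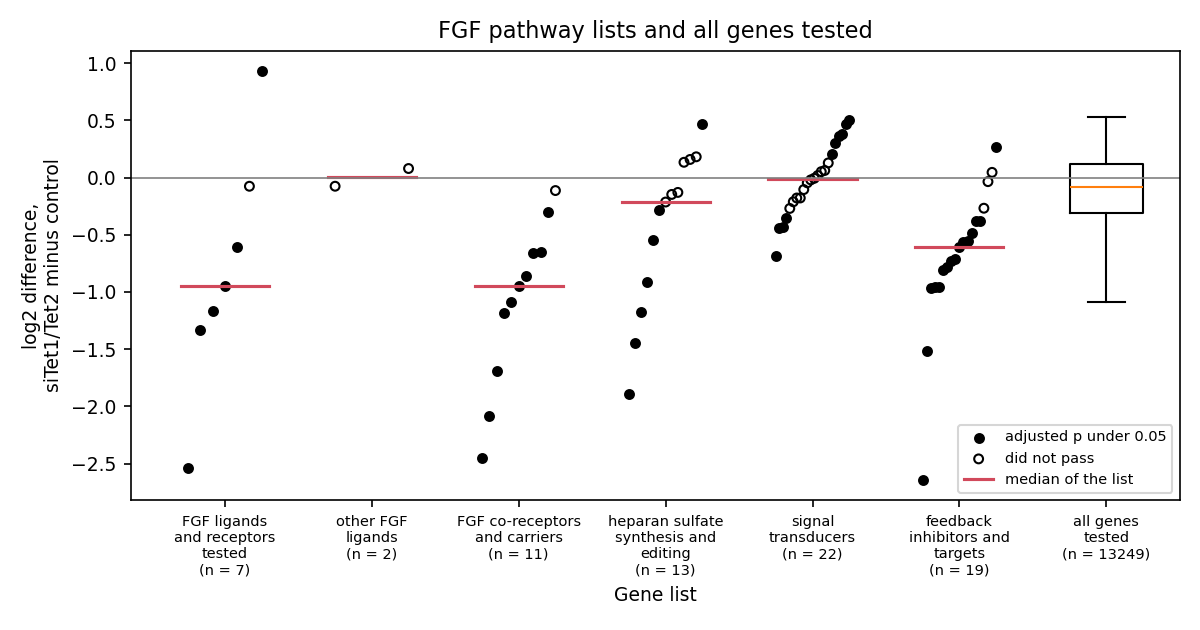
Log2 difference (siTet1/Tet2 minus control) of each tested gene of the FGF lists, filled where the adjusted p was under 0.05, with each list's median as a bar and all 13249 genes as a box whose whiskers reach the 5th and 95th percentiles. Co-receptors, with a median of -0.95, and feedback inhibitors and targets, at -0.61, lie mostly below 0, and signal transducers, at -0.01, lie on both sides.

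By the distance between centred log2 profiles over the 6 libraries, the genes most like Fgf7 among 11049 compared were Cdkn2b, Tgfb3 and Lrrc32, at root-mean-square distances of 0.0975, 0.122 and 0.125. Those most like Fgfr1 were Lzts2, Palld and Smad3, at 0.0584, 0.0690 and 0.0719. All points share the same 6 libraries, so the distances are a description.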

How the data were processed

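Total RNA of 6 BMMSC cultures was made into paired-end libraries. The authors trimmed adaptors, mapped reads to GRCm38 and deposited 1 table of RPKM per gene (the methods name the unit FPKM), with 36915 lines and a lowest listed value of 0.001, and a column of the authors' own p-values, which was not used. Annotation and handling of multiply mapped reads were not given in the sources used here.

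From that table, 27 lines with date-like symbols were dropped and, for 35 symbols listed more than once, only the most abundant line was used. Genes averaging 0.1 RPKM or more were tested on log2(RPKM + 1) with limma 3.58.1 (R 4.3.3; moderated test with a trend, two-sided) and Benjamini-Hochberg adjustment. Tested on simulated data with normally distributed noise, limma recovered 89 of 100 genes changed by 1 log2 unit and 100 of 100 changed by 2. The changed genes had a mean log2(RPKM + 1) over 2, so recovery was not tested for lower genes such as Fgf1, Fgf10 and Fgfr2. Far fewer genes were changed than were called in the real libraries. Reads per library were only estimated, from the steps of low values, so no count test was run. The depth chosen was the one that put most low values, 55.7 to 62.1%, within 0.1 of whole reads. If values were not whole, 20% would at a fixed depth, which is too low a comparison for a depth chosen this way. Reads per gene were then estimated with the longest annotated transcript. The authors may have used another length, so these read numbers are approximate. Positions are from the GRCm38 annotation. Deviations from the group means correlated at 0.149, 0.118 and 0.462 between same-numbered libraries, each over 0.1, so an alternative fit took the numbers as pairs (replicate block). Of other-numbered libraries, control 1 with siRNA 2 (0.332) and control 2 with siRNA 1 (0.204) correlated more than 2 of those pairs, and nothing in the labels says what a number marks.

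The FGF genes and all lists were chosen with earlier results of these data known. Of each pathway list the text names genes with an adjusted p under 0.05 and a fold over 2, otherwise the 2 with the lowest p, and the most abundant gene; 1 gene so chosen is not reported here. Alternatives covered the pseudocount, filter, scaling, variance model, repeated symbols, replicate block and each library left out.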

Additional observations from a re-analysis of the deposited data

How the results depend on the processing

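Under 17 alternatives other than scaling to stromal markers (16 for Fgf10, which a minimum mean of 1 RPKM removes), Fgf1, Fgf7, Fgf10, Fgfr1, Fgfr2 and Fgfrl1 kept their direction and a limma adjusted p of at most 0.0217. The log2 difference of Fgf2 ranged from -0.25 to 0.13. Leaving out each library gave 5 lower and 1 higher genes throughout, 2 to 4 lower and 0 higher by the study's thresholds, and 32 to 34 lower and 6 to 9 higher pathway genes. The fit with the replicate block changed no call among the FGF genes (5 lower and 1 higher) and gave 37 lower and 8 higher pathway genes.

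By the study's thresholds the 3 lower genes became 5 with a pseudocount of 0.1 or 0.01, with libraries rescaled to the same sum, or with the ratio of group means as the fold. The 0 higher became 1 (Fgf1) under those and under quantile normalization. Under quantile normalization the 3 lower became 2, as Fgfr2 stood at -0.965. The shares of all genes under these settings are not given here.

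Dividing by the median stromal marker level gave 0 lower and 6 higher FGF genes by adjusted p, 0 and 4 by the study's thresholds, and 0 lower and 64 higher pathway genes. The median ratio to stromal markers, added after seeing the data, gave 0 and 4, 0 and 4, and 3 and 58. Log2 differences under the former turned to 2.34 for Fgf2, 0.42 for Fgf7, 1.74 for Fgfr1, 0.28 for Fgfr2 and 1.63 for Fgfrl1, and under the latter to 1.81 for Fgf2, 1.05 for Fgfr1 and 1.05 for Fgfrl1. By construction, the median ratio sets the median change of the tested stromal markers to about 0. The median level only makes the middle marker level equal between libraries, over all 15 markers. Its factors were 0.273 to 0.367 in controls and 2.62 to 3.73 after siRNA. Those of the ratio were 0.327 to 0.491 and 1.70 to 3.45. The median level thus raised the siRNA libraries by more, and calls of a higher level under it carry this larger shift. Both shifts act on every gene, and the share of all genes called under either is not given here. The log2 difference of Tet2 was -1.80 in the main fit and -0.20 (limma adjusted p = 0.129) by the median stromal level. By the median ratio it was -0.54 (limma adjusted p = 0.00189), or -1.17 (0.00244) with 0.01 RPKM added. Low counts limit Fgf10, Fgf18, Fgfr3 and Fgfr4.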

Other observations

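Fgf17, a ligand of the Fgf8 subfamily that was too low to be tested, was listed at the lowest value of 0.001 RPKM in all 3 controls and at 0.041, 0.011 and 0.031 RPKM in the siTet1/Tet2 libraries. Without the filter its log2 difference was 0.04 (limma adjusted p = 0.165). Fgf22, a relative of Fgf7 and Fgf10, was listed at 0.104, 0.001 and 0.038 RPKM in controls and at 0.016, 0.111 and 0.163 RPKM after siRNA, and these overlapped. Both were named after their values were seen.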
